A study of Mus musculus with 41 samples.

Results

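The transient MLL3/4 sites are the genomic regions where MLL3/4 was detected in epidermal stem cells (EpdSCs) after 1 week of SOX9 induction but neither before induction nor 1 week later. They were chosen by the presence and absence of peaks in 3 deposited lists: a week (W) 1 MLL3/4 peak was a member where no MLL3/4 peak of day (D) 0 and none of W2 overlapped it by at least 1 bp. The rule found 7677 members among the 31539 W1 MLL3/4 peaks, or 24.3%. Of the other W1 peaks, 4841 were absent at D0 and present at W2 and are called lasting gains here, 4026 were listed at D0 and W1 but not W2, and 14995 were listed at all 3 times. For comparison, 14024 of the 37072 D0 peaks and 5657 of the 29281 W2 peaks were likewise seen at a single time.

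CUT&RUN (CNR) maps a protein on chromatin through a nuclease held by an antibody, which cuts out the DNA next to the protein for sequencing. The series followed SOX9 and MLL3/4 by CNR while SOX9 was switched on in mouse skin, and asked how a factor that opens closed chromatin redistributes the enzymes of other enhancers. Peak lists cover 32 of its 41 samples, and each group was represented by a list called on 2 pooled samples (MLL3/4 without DOX also by a list of replicate 1 alone), while the other 9 samples (JUN, ARID1a and BRG1 CNR) are not analysed here. No spread between replicates can be computed from pooled lists, so no test between groups was made and the 95% Wilson confidence intervals (CI) given with shares are over regions and cover counting error only.

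The in vivo cells came from back skin of male CD1 mice with the genotype K14rtTA; TRE-myc-Sox9. In these animals the *Krt14* promoter, active in the basal layer, drives a transactivator that needs doxycycline (DOX) to switch on a MYC-tagged *Sox9* transgene. All groups carry both transgenes, D0 included. D0 mice were at postnatal day 21 without DOX, W1 mice at day 28, W2 mice at day 35 and W6 mice at day 63, while W12 stands for skin grafts. Age and weeks of DOX cannot be told apart. EpdSCs were sorted as Ly6A-high and CD49f-high cells without CD34 and without CD31, CD45, CD117 and CD140a. MLL3/4 was mapped at the first 3 of these times. Cultured keratinocytes, from back skin of male CD1 mice with K14rtTA, were given a DOX-inducible, MYC-tagged SOX9 by lentivirus. They carried wild-type SOX9 (WT-SOX9) without DOX or with DOX at 1 µg per ml, or, with DOX, SOX9 lacking its transactivation domain (dTA) or its DNA-binding HMG domain (dHMG). Of the defining genes of basal epidermis, 3 of 6 (*Krt5*, *Krt14* and *Col17a1*) had a W1 MLL3/4 peak within 1 kb of the start of the gene. Among markers of immune cells (3 genes), endothelium (3 genes) and fibroblasts (4 genes) 0 had one, and among 4 melanocyte markers *Dct* did. No marker of any of these types had a transient site there.

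MLL3 and MLL4 are large histone methyltransferases that place monomethyl marks on histone H3 lysine 4 at enhancers, and they are among the cofactors that prime an enhancer before or while its gene is expressed. SOX9 is an HMG-box factor of the hair follicle lineage that can bind its sequence in closed chromatin, and a factor of that kind is called a pioneer. EpdSCs of the adult epidermis do not normally use SOX9. AP1 factors, dimers of JUN and FOS proteins, are regular occupants of epidermal enhancers together with factors such as TP63 and GATA3.

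The sequences below extend 50 bp both ways from the middle of the maximum of 8 transient sites, shown because they carry the features in which members differed among themselves: a SOX9 peak with a SOX word, or an AP1 word with no SOX9 peak at W1. They are the members of highest total signal of each kind, read from the + strand of GRCm38.p6 (mm10). The capitals mark the word. The SOX word was CCATTGT or CCTTTGT or GCATTGT or GCTTTGT and the AP1 word TGACTCA or TGAGTCA, on either strand. The 4 sites with a SOX9 W1 peak were at chr2:78021361-78021461 (intergenic, 74847 bp from *Cwc22*), chr1:149893952-149894052 (intron of *Pla2g4a*, a phospholipase that releases arachidonic acid), chr15:93793072-93793172 (intergenic, 197049 bp from *Prickle1*, a planar cell polarity gene) and chr8:27037849-27037949 (exon of *Erlin2*):
Cwc22: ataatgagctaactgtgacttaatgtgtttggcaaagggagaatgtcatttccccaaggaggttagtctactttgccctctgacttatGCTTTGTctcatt
Pla2g4a: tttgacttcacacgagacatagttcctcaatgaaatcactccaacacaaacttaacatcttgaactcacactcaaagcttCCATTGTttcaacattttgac
Prickle1: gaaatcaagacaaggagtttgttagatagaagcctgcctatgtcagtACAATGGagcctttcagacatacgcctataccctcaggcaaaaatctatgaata
Erlin2: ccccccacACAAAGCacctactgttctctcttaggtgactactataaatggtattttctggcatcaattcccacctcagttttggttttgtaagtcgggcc

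The 4 sites with an AP1 word and no SOX9 W1 peak were at chr2:172498933-172499033 (intergenic, 24286 bp from *Fam209*), chr12:50839309-50839409 (intron of a gene that codes for no protein, 189969 bp from *Prkd1*), chr2:52938385-52938485 (intron of *Fmnl2*, a formin that assembles actin) and chr7:74464782-74464882 (intron of *Slco3a1*, an organic anion transporter). Those of *Fmnl2* and *Slco3a1* also overlapped an MLL3/4 peak of cultured keratinocytes without DOX:
Fam209: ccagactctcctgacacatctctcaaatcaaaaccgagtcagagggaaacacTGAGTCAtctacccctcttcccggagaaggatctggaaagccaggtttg
Prkd1: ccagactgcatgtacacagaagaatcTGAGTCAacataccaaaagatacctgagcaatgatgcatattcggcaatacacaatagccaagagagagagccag
Fmnl2: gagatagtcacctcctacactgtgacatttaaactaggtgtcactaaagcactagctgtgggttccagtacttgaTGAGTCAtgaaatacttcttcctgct
Slco3a1: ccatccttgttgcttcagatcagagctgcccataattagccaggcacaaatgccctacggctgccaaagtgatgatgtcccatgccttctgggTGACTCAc

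Transient sites were the weak end of the W1 list. The study's methods describe RPKM coverage, but the deposited MLL3/4 signal holds whole numbers and is read here as unscaled coverage, that is, the number of fragments over a base. Its maximum was 5 at the weakest peak of the list. It was also 5 in 4893 (63.7%) of the members, whose median was 5, quartiles 5 and 6 and highest value 20. Only 99 members (1.29%) reached a maximum of 10, against 20.7% of the lasting gains and 39.2% of the peaks listed at all 3 times. Read in this way, a count of 5 fragments has an exact 95% Poisson interval of 1.62 to 11.7, so at this depth the absence of a peak from the D0 or W2 list cannot be told from a peak missed by counting error. Median total signal, the coverage summed over the bases of a peak, was 638 in members, 1193 in lasting gains and 1641 in peaks of all 3 times, and median width was 250, 377 and 448 bp. The 5657 peaks seen only at W2 resembled members, with a median maximum of 5, a median total signal of 673 and a median width of 255 bp. These values are from the list that chose the members and are a description. The lists hold no signal for places without a peak, so the level of MLL3/4 at the members at D0 and W2 is not known.

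When the W1 list was divided into 10 groups of equal size by total signal, the share of transient sites fell from 68.5% in the weakest group (2161 of 3154) to 0.285% in the strongest (9 of 3154). Peaks listed at all 3 times went the other way, from 10.3% to 88.2%.

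**Figure D1:**
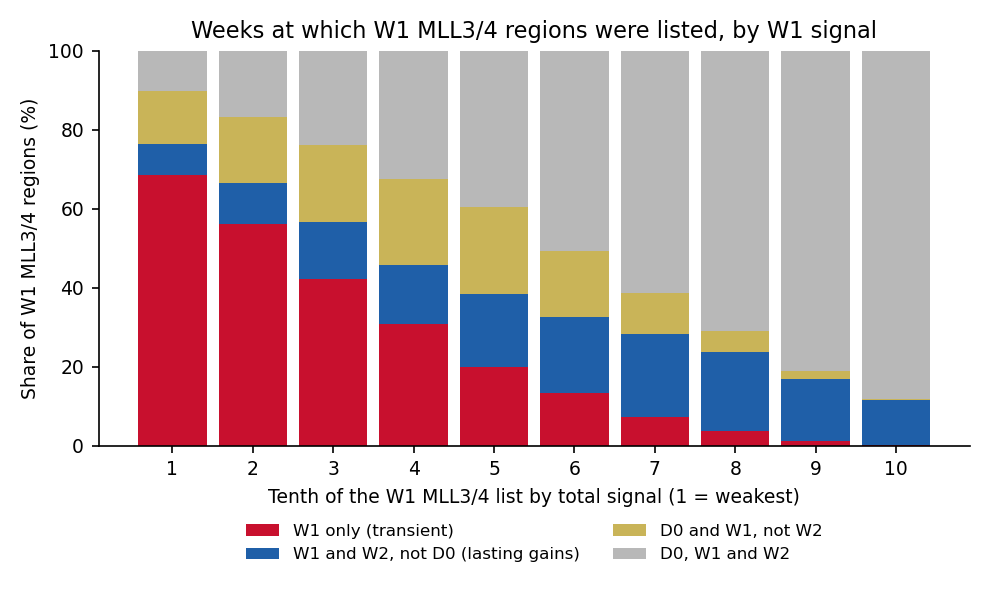
Share of W1 MLL3/4 regions (y axis, %) of each class in 10 groups of equal size by total signal (x axis, 1 = weakest), with red for transient sites, blue for lasting gains, yellow for regions of D0 and W1 and grey for regions of all 3 times. The red share falls from 68.5% to 0.285% while the grey share grows from 10.3% to 88.2%.

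Members stood farther from other W1 MLL3/4 peaks than lasting gains did. The median gap to the closest D0 or W2 peak was 9444 bp, 2151 members (28.02%) had one within 2000 bp and 1051 (13.7%) within 500 bp. The median distance to the next W1 peak of any class was 13754 bp for members and 3001 bp for lasting gains, and 27.4% of members against 8.22% of lasting gains had no other W1 peak within 50 kb. At the limit of the rule, the members just inside touched a D0 or W2 peak with 0 bases between them, such as chr12:70585070-70585320 with a maximum of 10 and a total signal of 1329. The peaks just outside shared 1 base, such as chr1:161247039-161247543 with a maximum of 11 and a total signal of 1754. In all, 29 members had a gap of at most 10 bp and 29 W1 peaks were left out for an overlap of fewer than 10 bp.

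SOX9 CNR was not used by the rule and could be compared. At W1, 975 of the 7677 transient sites overlapped a SOX9 peak, or 12.7% (95% CI 11.97 to 13.5), beside 45.3% of all W1 MLL3/4 peaks. Moving the members by 10 kb, as a local background, gave 2.08%. Lasting gains overlapped SOX9 W1 peaks in 58.7% of cases (95% CI 57.3 to 60.1), a difference of -46.0 percentage points from the members (95% CI -47.6 to -44.4). Peaks of D0 and W1 without W2 had a SOX9 share of 23.3% (95% CI 21.99 to 24.6), and the members differed from them by -10.6 points (95% CI -12.1 to -9.08). At D0, before DOX, 7 members (0.0912%) overlapped one of the 792 SOX9 peaks. Peaks seen only at W2 had a SOX9 W1 peak in 12.9% of cases (95% CI 12.1 to 13.8), a difference of -0.24 points (95% CI -1.40 to 0.90). At W2 and W6 they had more than the members, with 18.6% against 10.2% at W2 (difference -8.39 points, 95% CI -9.62 to -7.18) and 21.6% against 14.5% at W6, while at W12 the difference was -0.38 points (95% CI -1.27 to 0.49). Over W1 to W12 together it was 30.2% against 21.6% (difference -8.66 points, 95% CI -10.2 to -7.15).

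Since members were weak and weak peaks of every class had fewer SOX9 peaks, the comparison with lasting gains was repeated among peaks of like signal. Among the 812 members in the stronger part of the list (15769 W1 peaks), 37.6% had a SOX9 W1 peak, and counting only SOX9 peaks above 3600 RPKM lowered the share over all members to 3.53%. The members' share stayed below that of lasting gains in each of the 10 groups. The share was 5.04% against 29.0% in the weakest group, 24.7% against 47.5% in the fifth and 45.8% against 63.6% in the seventh. The differences ranged from -17.8 points in the seventh group (95% CI -25.1 to -10.3) to -76.1 in the tenth, which held 9 members (95% CI -92.0 to -43.5). Weighted over the groups, the difference was -24.6 points (95% CI -26.6 to -22.6). In the ninth group the share rested on 1 stretch of chromosome 2 described further on: it was 43.2% of 37 members, and 76.2% of the 21 members outside that stretch, beside 87.9% of the lasting gains outside it. Of the 9 members in the tenth group, 1 lay outside the stretch. The weighted difference without the stretch was -23.5 points (95% CI -25.5 to -21.4). Set against peaks of D0 and W1 without W2, the members were lower in the first 4 groups (5.04% against 12.1% in the weakest). They were higher in the next 3 (24.7% against 22.7%, 31.7% against 30.8% and 45.8% against 37.2%). In the last 3 they were lower again (42.2% against 44.9%, 43.2% against 68.9% and 22.2% against 40%). Outside the stretch the eighth and ninth groups gave 46.7% against 44.9% and 76.2% against 68.9%. Beyond the first 4 groups the 95% intervals of both classes overlapped. The difference of -10.6 points over all peaks thus kept its direction only in the weaker groups, and its direction in the others was not settled.

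**Figure D2:**
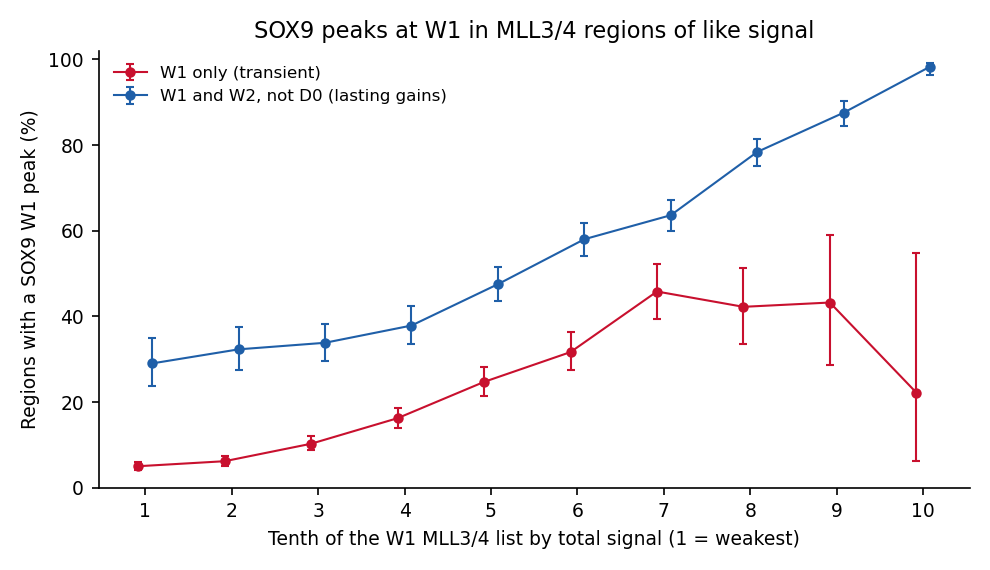
Share of MLL3/4 regions with a SOX9 W1 peak (y axis, %, bars are 95% Wilson intervals over regions) in 10 groups of W1 total signal (x axis, 1 = weakest), with red for transient sites and blue for lasting gains. Red lies below blue in every group, at 5.04% against 29.0% in the first and 22.2% against 98.3% in the tenth, where 9 transient sites stand.

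Where a member did have a SOX9 peak at W1, SOX9 was often still listed after MLL3/4 was not. Of the 975 SOX9-bound members, 502 (51.5%, 95% CI 48.4 to 54.6) also overlapped a SOX9 peak at W2, 596 (61.1%, 95% CI 58.0 to 64.1) one at W6 and 316 (32.4%, 95% CI 29.5 to 35.4) one at W12. The SOX9 peaks were present at W2, W6 and W12 together in 242 (24.8%) and at none of the 3 in 290 (29.7%). The corresponding shares among the 2843 SOX9-bound lasting gains were 84.1% at W2, 79.6% at W6 and 49.6% at W12, and the difference at W2 was -32.6 points (95% CI -36.0 to -29.2). The 937 SOX9-bound peaks of D0 and W1 without W2 kept a SOX9 peak at W2 in 51.2% of cases (95% CI 48.03 to 54.4), much as the members did. The SOX9 lists differed in length, from 9745 peaks at W12 over 15651 at W1 and 18657 at W2 to 20579 at W6, so shares at different weeks are set side by side and not compared. A further 680 members, 10.2% of the 6698 without a SOX9 peak at D0 or W1, had one at a later week, beside 44.7% of such lasting gains, 42.9% of such peaks of all 3 times and 20.9% of such peaks of D0 and W1 without W2. In all, 6018 members (78.4%, 95% CI 77.5 to 79.3) had no SOX9 peak in any list. Among lasting gains 22.8% had none, among peaks of all 3 times 20.7% and among those of D0 and W1 without W2 60.5%.

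SOX9 peaks under transient sites were of ordinary height. Their median maximum at W1 was 2651 RPKM (quartiles 2132 and 3803, 963 SOX9 peaks), beside 2708 for the whole W1 list and 3515 (quartiles 2478 and 5532, 2693 SOX9 peaks) under lasting gains. RPKM is the coverage scaled to the size of the library. The maxima of the MLL3/4 and SOX9 peaks lay a median of 58 bp apart at members and 58 bp apart at lasting gains. The sites printed above with a SOX9 W1 peak and a SOX word showed both courses, with SOX9 still listed or not listed later. The *Cwc22* site had 1959 RPKM at W1 and no SOX9 peak at W2, W6 or W12. The *Prickle1* site printed above had SOX9 maxima of 8874, 7029, 4701 and 3309 RPKM at W1, W2, W6 and W12 and thus a SOX9 peak at every week. The *Pla2g4a* site had 7549 RPKM at W1 and no SOX9 peak at W2, W6 or W12. The *Erlin2* site had 6396, 6188, 2812 and 2712 RPKM, and the MLL3/4 maximum of its member was 6.

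Cultured keratinocytes gave a second set of cells and libraries that the rule did not use. Without DOX, 833 members (10.9%, 95% CI 10.2 to 11.6) overlapped a cultured MLL3/4 peak, beside 39.3% of all W1 MLL3/4 peaks and 23.5% (95% CI 22.3 to 24.7) of lasting gains. With WT-SOX9 and DOX it was 394 members (5.13%, 95% CI 4.66 to 5.65) against 22.1% of lasting gains. With dTA it was 543 members (7.07%) against 15.6%, and with dHMG 520 members (6.77%) against 16.01%. Of the 812 members in the stronger part of the W1 list, 18.7% overlapped the list without DOX and 13.1% that with WT-SOX9. Of all W1 MLL3/4 peaks, 16.8%, 28.1% and 30.1% overlapped the lists of WT-SOX9, dTA and dHMG. The 4 lists held 33975, 10543, 25948 and 23301 peaks in that order, so the values are set side by side and the constructs are not compared. The members moved by 10 kb gave 1.86%, 0.664%, 1.37% and 1.33%. In all, 1214 members (15.8%, 95% CI 15.0 to 16.6) overlapped at least 1 of the 4 cultured MLL3/4 lists, and 5418 (70.6%, 95% CI 69.5 to 71.6) neither a cultured MLL3/4 nor an in vivo SOX9 peak. For lasting gains these shares were 38.2% and 17.4%.

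Members with and without SOX9 at W1 differed in culture, and so did lasting gains. Of the 975 SOX9-bound members, 187 (19.2%, 95% CI 16.8 to 21.8) overlapped an MLL3/4 peak of WT-SOX9 cells with DOX, against 207 (3.09%, 95% CI 2.70 to 3.53) of the 6702 others. For MLL3/4 without DOX the shares were closer, 14.7% (95% CI 12.6 to 17.03) and 10.3% (95% CI 9.59 to 11.05). MYC-tag CNR, which detects the transgenic SOX9 itself, gave a peak of WT-SOX9 cells at 177 (18.2%, 95% CI 15.9 to 20.7) of the SOX9-bound members and at 82 (1.22%, 95% CI 0.987 to 1.52) of the others. Lasting gains with and without a SOX9 W1 peak gave 30.9% and 9.51% for MLL3/4 with WT-SOX9 and DOX. Without DOX they gave 22.4% and 25.1%, and for the MYC tag with WT-SOX9 25.3% and 2.35%. The split was not repeated among members of like signal. Over all members the MYC-tag shares were 3.37% with WT-SOX9, 3.84% with dTA, 0.625% with dHMG and 0.417% without DOX, beside 7.03%, 12.2%, 4.16% and 3.40% of all W1 MLL3/4 peaks and 0.274%, 0.501%, 0.189% and 0.0782% of the members moved by 10 kb. The MYC-tag lists held 6671, 11341, 3980 and 2242 peaks, so their order is not compared either. The labels describe both WT-SOX9 MLL3/4 samples with DOX as replicate 2, although their titles number them 1 and 2.

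**Figure D3:**
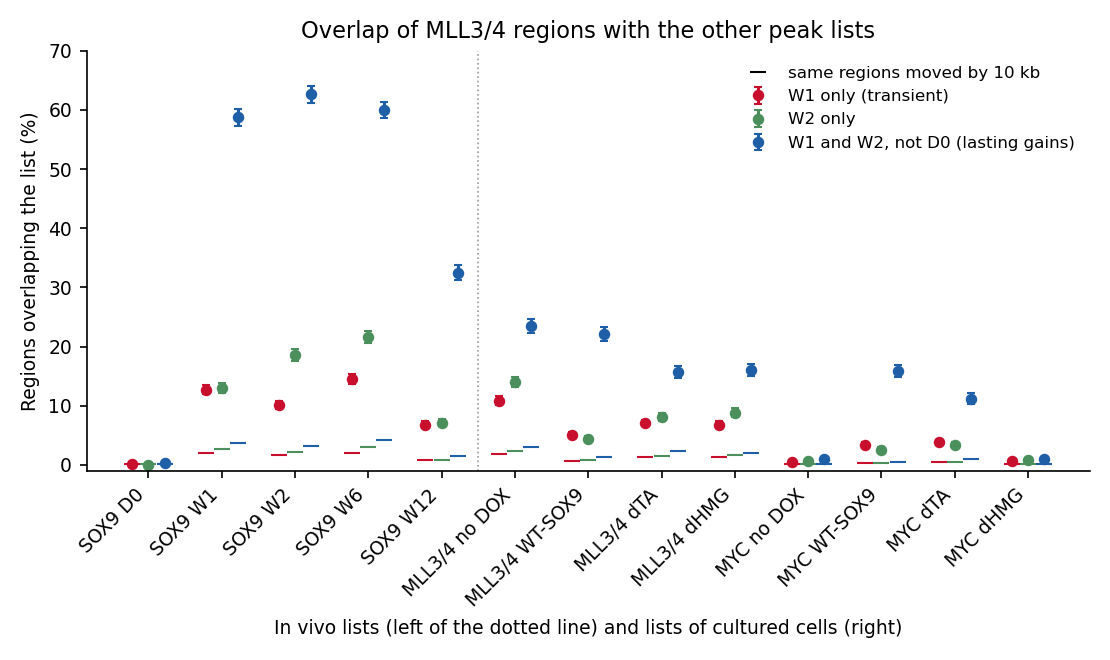
Share of regions overlapping each other peak list (y axis, %, bars are 95% Wilson intervals over regions) for 5 in vivo SOX9 lists and 8 lists of cultured cells (x axis), with red for transient sites, green for peaks of W2 only, blue for lasting gains and dashes for the same regions moved by 10 kb. Red lies below blue throughout and above its dash in all lists but SOX9 D0, and red and green are at 12.7% and 12.9% for SOX9 W1 and at 10.2% and 18.6% for SOX9 W2.

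Over all windows, the SOX word was less frequent in members than in lasting gains and more frequent than in peaks already present at D0. The SOX word was in 716 of 7677 windows of the kind printed above (9.33%, 95% CI 8.70 to 9.998), in 6.66% of windows of the same length 1 kb to each side and in 9.09% of all W1 windows. Lasting gains held it in 16.9% (95% CI 15.9 to 18.02), against 6.57% of their control windows, and members minus lasting gains differed by -7.61 points (95% CI -8.86 to -6.38). In peaks of D0 and W1 without W2 it was in 5.76%, in peaks of all 3 times in 7.34% and in peaks of D0 only in 4.35%, and members minus D0 only differed by 4.98 points (95% CI 4.26 to 5.72). Peaks of W2 only held it in 9.63% (95% CI 8.89 to 10.4). The members' share also went with the strength of the peak, at 14.2% (95% CI 11.9 to 16.7) of the 812 members in the stronger part of the list and 8.75% (95% CI 8.11 to 9.45) of the others, and lasting gains of like signal were not compared. Within the class, the word was in 19.8% (95% CI 17.4 to 22.4) of the windows of the 975 members with a SOX9 W1 peak and in 7.80% (95% CI 7.19 to 8.47) of the others, whose control windows held it in 6.58%. Among the SOX9-bound it was in 24.5% (95% CI 20.9 to 28.4) of the 502 with a SOX9 peak also at W2 and in 14.8% (95% CI 11.9 to 18.3) of the 473 without. Lasting gains gave similar values when divided in the same way, with the word in 21.9% (95% CI 20.5 to 23.5) of those with a SOX9 W1 peak, 23.1% (95% CI 21.5 to 24.9) of those with one at W1 and W2 and 15.7% (95% CI 12.6 to 19.3) of those with one at W1 and not W2. Without a SOX9 W1 peak they held it in 9.81% (95% CI 8.58 to 11.2), above the members. The *Prickle1* site above had SOX9 peaks at W1 and W2, and the *Pla2g4a* site at W1 and not W2.

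The AP1 word was in 605 windows of members (7.88%, 95% CI 7.30 to 8.50), against 1.90% of their control windows and 12.3% of all W1 windows. Lasting gains held it in 10.8% (95% CI 9.94 to 11.7) and peaks of all 3 times in 14.8% (95% CI 14.2 to 15.3). The 812 members in the stronger part of the list held it in 12.4% (95% CI 10.3 to 14.9), and no comparison with lasting gains of like signal was made. Members with the AP1 word overlapped cultured MLL3/4 peaks without DOX in 29.4% of cases (95% CI 25.9 to 33.2) and members without it in 9.26% (95% CI 8.61 to 9.96). For the SOX word the split was 11.6% and 10.8%, while for SOX9 W1 peaks it was 27.0% (95% CI 23.8 to 30.3) with the word and 11.2% (95% CI 10.5 to 11.997) without. Members with the AP1 word also had a SOX9 W1 peak more often, in 20.2% of cases (95% CI 17.2 to 23.5) against 12.1% without the word (95% CI 11.3 to 12.8). The AP1 word thus went with both lists and the SOX word with that of SOX9. Of the other words, TEAD (ACATTCC) was in 2.25% of member windows against 1.41% of control windows and 3.74% of lasting gains. The word of GATA factors, spelled AGATAAC or AGATAAG, was in 3.06% against 2.51%, and RUNX (AACCACA) in 2.18% (95% CI 1.87 to 2.53) against 2.56%. A match is a run of letters and not a site of binding, and all words were counted separately on both strands.

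**Figure D4:**
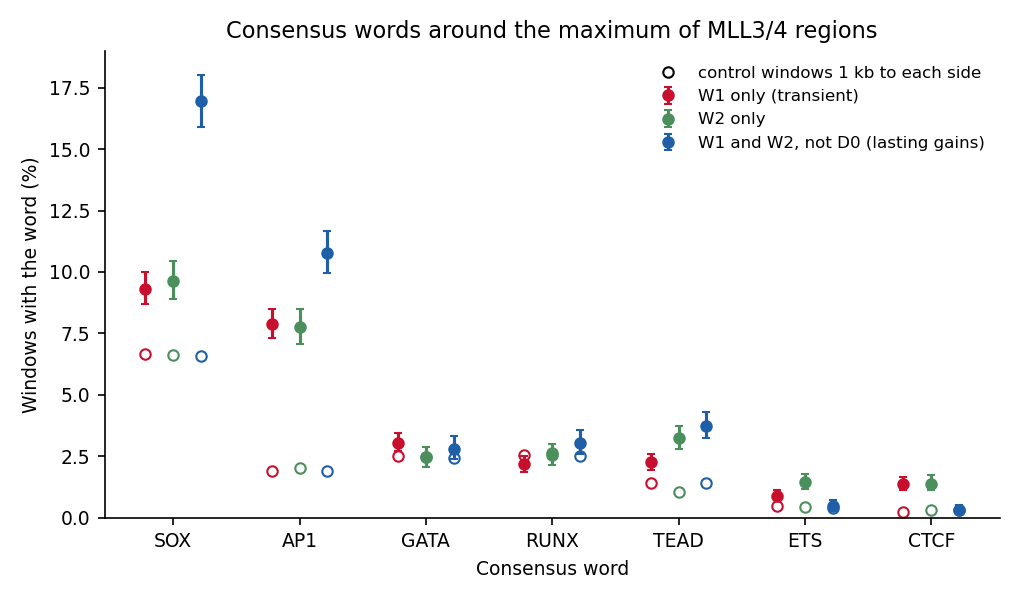
Share of windows around the maximum with each consensus word (y axis, %, bars are 95% Wilson intervals over regions) for 7 words (x axis), with red for transient sites, green for peaks of W2 only, blue for lasting gains and open circles for control windows 1 kb to each side. The SOX word is at 9.33%, 9.63% and 16.9% in that order, and the AP1 word at 7.88%, 7.76% and 10.8%.

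By position, 1161 members (15.1%, 95% CI 14.3 to 15.9) were within 1 kb of an annotated transcription start, 383 (4.99%) touched another exon, 3082 (40.1%) were in introns and 3051 (39.7%) between genes. Promoters were less frequent than among peaks of all 3 times (24.9%), peaks of W2 only (20.9%) and peaks of D0 only (27.7%), with a difference of -12.6 points in the last case (95% CI -13.6 to -11.5). They were slightly more frequent than among lasting gains (12.2%, difference 2.96 points, 95% CI 1.72 to 4.17). The median distance to a start was 10192 bp for members, 10542 bp for lasting gains and 6572 bp for peaks of all 3 times. SOX9 W1 peaks lay at 14.5% (95% CI 13.3 to 15.8) of intronic, 12.9% (95% CI 11.1 to 14.97) of promoter and 10.7% (95% CI 9.64 to 11.8) of intergenic members.

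The strongest members crowded in 1 place. Of the 10 members of highest total signal, 9 lay in a stretch of 157338 bp at chr2:77869660-78026997 around *Cwc22*, which codes for a splicing factor, and it held 84 members (1.09% of all), or 5.34 per 10 kb. No other run of transient sites with gaps of at most 20 kb held 10 or more. The strongest was in an intron of *Cwc22* at chr2:77917261-77918822, 1562 bp wide, with a total signal of 7167 and a maximum of 11, and it had SOX9 maxima of 2859 RPKM at D0 and 1959 at W1. The second, at chr2:77924125-77925608, covered an annotated start inside *Cwc22* with a total signal of 5157 and a maximum of 10. Members there were broad and low, with a median width of 501 bp and maxima from 5 to 12 with a median of 6. The W1 list had 104 peaks in the stretch, the W2 list 27 and the D0 list 7, and the 4 cultured MLL3/4 lists 0. SOX9 W1 peaks overlapped 3 of the 84. The segment around *Cwc22* is known to vary in copy number between mice, and CD1 is an outbred strain. Copy number was not measured and its part in these peaks was not tested. Without the stretch, 7593 members remained and 12.8% had a SOX9 W1 peak.

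**Figure D5:**
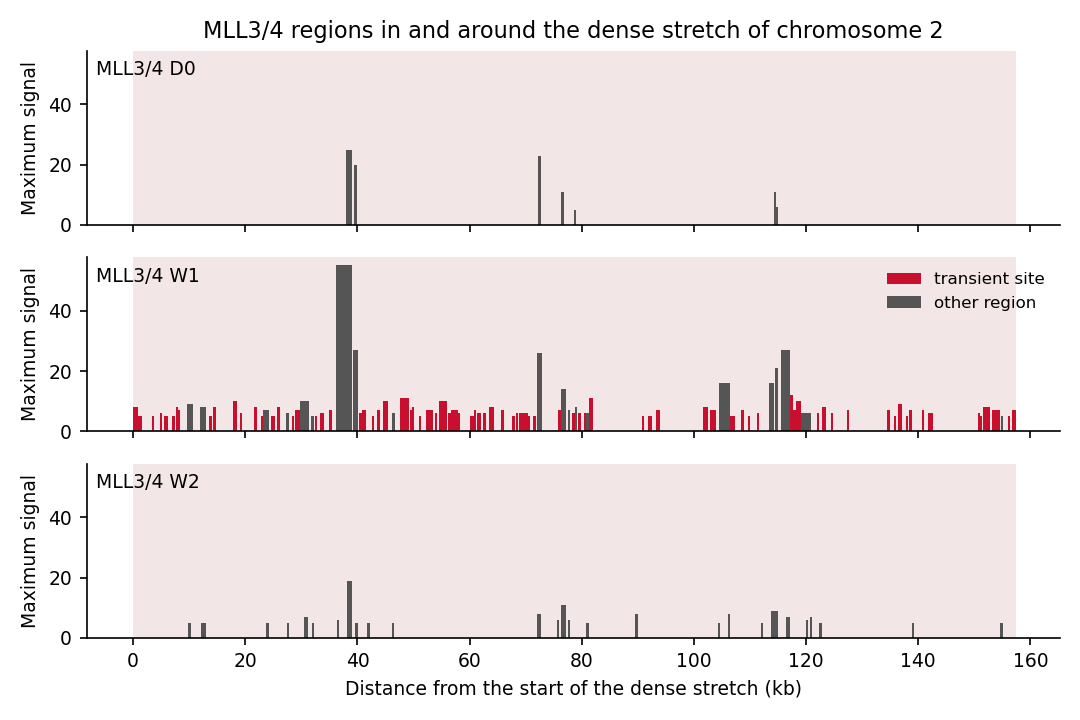
Maximum MLL3/4 signal of each region (y axis, unscaled coverage in fragments) against its distance from the start of the dense stretch of chromosome 2 (x axis, kb, stretch shaded), at D0, W1 and W2 from top to bottom, with red for transient sites and grey for other regions. The 84 transient sites lie low between 5 and 12, among 20 other W1 regions that reach 55, while D0 has 7 regions and W2 has 27.

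Outside that stretch the strongest members were single sites with different SOX9 courses. These 6 were chosen after their values were seen. The exon of *Saysd1* at chr14:20074849-20075843 had a total signal of 3284, a maximum of 6 and no SOX9 peak. The site 7010 bp from *Cd244a*, a receptor of natural killer cells, had a total signal of 2735, a maximum of 6 and no SOX9 peak, and that 44451 bp from *Fut8*, a fucosyltransferase, had 2535, 7 and none. The site at chr3:51091878-51092419, 132027 bp from *Noct*, had a total signal of 2722, a maximum of 13 and SOX9 maxima of 4725, 2827 and 3022 RPKM at W1, W2 and W6. The intron of *Pla2g4a* had a total signal of 2680 and a maximum of 12. At chr6:52686719-52687662, 26066 bp from *Tax1bp1*, an autophagy adaptor, the total signal was 2596, the maximum 8 and the SOX9 maxima 4034, 6188, 6758 and 2068 RPKM at W1, W2, W6 and W12. This last site also had MLL3/4 and MYC-tag peaks in WT-SOX9 cells with DOX. At promoters, the strongest members outside the stretch were those 867 bp from the start of *Mrgpra3*, an itch receptor of sensory neurons (total signal 2260, maximum 7, no SOX9 peak), and 554 bp from an annotated start in *Atp6v0a4*, a proton pump subunit. The latter had a total signal of 2119, a maximum of 11 and SOX9 maxima of 3861 RPKM at W1 and 2141 at W6.

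A transient site lay in the gene or within 50 kb of it for 8038 of 21938 protein-coding genes (36.6%), and 900 genes (4.10%) had 3 or more. Of the hair follicle list, 28 of 40 genes (95% CI 54.6% to 81.9%) had one and 6 had 3 or more. Of the epidermal list, 23 of 40 had one (57.5%, 95% CI 42.2% to 71.5%) and 5 had 3 or more. With only the stronger part of the W1 list these shares were 22.5% and 17.5%, and the share of all protein-coding genes was not computed there. With loci of 10 kb they were 52.5% and 32.5%, beside 18.9% of all protein-coding genes. Hair follicle genes were longer, with a median length of 61.3 kb against 17.6 kb for epidermal genes and 17.4 kb for all. Epidermal and hair follicle genes also had more W1 MLL3/4 peaks, with a median of 7 and 5.5 a gene against 2 for all, and more often a lasting gain, at 42.5% and 55% of genes against 21.2%. The part of length and of peak number in the shares was not tested. Per 100 W1 MLL3/4 peaks at these genes, 26.6 were transient at hair follicle genes, 12.6 at epidermal genes and 20.7 at all protein-coding genes. The lists of AP1 genes (5 of 12), of epithelial-mesenchymal transition and invasion (5 of 14), of MLL3/4 and SWI/SNF subunits (9 of 25) and of housekeeping genes (5 of 16) held a transient site at 31.2% to 41.7% of their genes and had no gene with 3 or more. Of the marker lists, basal epidermis had one at 5 of 6 genes and fibroblast at 1 of 4, and immune cells, endothelium and melanocytes at 0.

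The hair follicle genes with most members were also long ones. *Nfib*, which maintains hair follicle stem cells and spans 415578 bp, had 8 transient sites among 22 W1 peaks, with total signals from 519 to 1389 and 2 of the 8 under SOX9 W1 peaks. *Sox6*, which spans 567925 bp, had 7 of 14, all inside the gene, and none of the 7 had a SOX9 peak at any week, with maxima of 5 or 6. *Sox5*, a related SOX factor that spans 953553 bp, had 5 of 9, of which 3 had a SOX9 W1 peak. Its intronic site at chr6:144020083-144020375 held a SOX word and kept SOX9 maxima of 5762, 3056, 10998 and 7032 RPKM at W1, W2, W6 and W12, with an MLL3/4 maximum of 5. Its upstream site at chr6:144814490-144815127 had an MLL3/4 maximum of 10 and SOX9 maxima of 4207, 2063 and 2057 RPKM at W1, W2 and W6. The *Sox6* and *Sox5* loci thus had similar numbers of members but differed in SOX9, 0 of 7 against 3 of 5, a count too small to compare.

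*Runx2*, a factor of skeletal and hair follicle cells, had 5 transient sites of 13 W1 peaks. Its intronic site at chr17:44544996-44545466 had a total signal of 1609 and SOX9 maxima of 2535, 3820, 5331 and 4504 RPKM at W1, W2, W6 and W12. A second at chr17:44475905-44476101 had no SOX9 peak at W1 and 2063, 5919 and 5285 RPKM at W2, W6 and W12, so SOX9 was listed there only after MLL3/4 was. *Krt15*, a keratin of hair follicle stem cells, had 3 of 6, of which 2 had SOX9 W1 peaks. All 3 lay more than 10 kb from the gene, at 31.4, 33.0 and 50.8 kb from its start, among other keratin genes. *Bmp6*, a signal that holds hair follicle stem cells quiet, had 3 of 6, among them 1 at its own start at chr13:38344901-38345165 with a maximum of 8 and no SOX9 peak.

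Among epidermal genes, *Trp63*, the master factor of stratified epithelium, had 4 transient sites of 25 W1 peaks, beside 6 lasting gains. They had maxima of 5 or 6, and 1 had a SOX9 W1 peak at 1844 RPKM. *Klf4*, a factor of differentiating layers, had 4 of 12, of which 2 were at its start, with no SOX9 peak at any of the 4 and cultured MLL3/4 without DOX at 2. *Krt14*, a keratin of basal cells whose promoter also drives the transactivator, had 3 of 9. *Ivl*, a protein of the cornified envelope, had 3 of 11, and *Zfp36*, an RNA-binding repressor of inflammatory transcripts, 3 of 8. Within 10 kb of the gene lay 0 of the *Ivl* sites, 1 of the *Zfp36* sites and 1 of the *Krt14* sites. Of the *Krt14* sites, 2 also counted for *Krt15*, its neighbour.

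At the other loci that the study names, *Gata3* and *Vim* had no transient site, *Runx1* had 1 of 13 W1 peaks, *Krt5* 1 of 8 and *Ctnnb1* 2 of 6. *Runx1* by contrast had 9 lasting gains. *Sox9* had 1, in an exon at chr11:112785562-112785754 with a total signal of 551, a maximum of 5 and no SOX9 peak. Over all protein-coding genes, *Cwc22* had most members (70), followed by the very long annotations *Gm20388* (22 in 4434882 bp), *Fgfr2* (19 in 2960900 bp), *Gm37240* (12 in 1391093 bp) and *Macrod2* (11 in 1997658 bp). *Zbtb20*, a repressor of the zinc finger family, tied with *Macrod2* at 11 in 766722 bp. For *Fgfr2*, a receptor of fibroblast growth factors, 19 lasting gains stood beside the 19 transient sites, and 3 of the latter had a SOX9 W1 peak.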

How the data were processed

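CNR of SOX9 and MLL3/4 in sorted EpdSCs and of MLL3/4 and the MYC tag in cultured keratinocytes was represented by 18 peak lists, of which 17 were used, and the MYC-tag list of replicate 1 alone was not. After trimming (Skewer), alignment to mm10 (Bowtie2 2.2.9) and removal of duplicates (Picard), the authors selected fragments up to 120 bp (SAMtools 1.3.1), combined replicates, computed coverage (deepTools 3.1.2) and called peaks (SEACR, stringent mode, 0.01). Each deposited list gives a score, the total signal summed over a peak, and its maximum. The maximum is an RPKM value in the deposited SOX9, MYC-tag and replicate 1 lists and, in the deposited pooled MLL3/4 lists, unscaled signal (coverage in whole fragments), whose depth is not stated. The authors kept SOX9 and MYC-tag peaks above 1800 RPKM. Maxima in the SOX9 lists move in steps of 57.6 RPKM at W1 and 76.4 at W2, taken as the value of 1 fragment, so that the weakest peaks hold about 32 and 24 fragments.

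Calculations were run in Python 3.11.15 (numpy 2.4.6, pandas 2.3.3, scipy 1.17.1, matplotlib 3.10.9). Regions on the mitochondrial sequence were dropped. Coordinates count from 1 on mm10 (GRCm38.p6), genes are from GENCODE vM21, and 0 regions ended beyond a reference chromosome. Overlap means at least 1 bp. The local background is the overlap after moving regions by 10 kb to each side. Words were counted in windows extending 50 bp both ways from the middle of the maximum. Promoters reach 1 kb to each side of a start and loci 50 kb beyond a gene. Shares have 95% Wilson intervals and differences Newcombe intervals, except the difference weighted over the 10 signal groups, which has a normal interval. The methods were tested on simulated data.

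Named members are the 10 of highest total signal, the 5 highest with a SOX9 W1 peak, the 5 highest at promoters and those at the limit of the rule. Named genes are the 5 with most members, list genes with 3 or more and 7 loci the study names. The members and gene lists were chosen with earlier results of these data known, and the dense stretch was found in the data. Alternatives were a stricter overlap, a 500 bp gap, lists of equal size, the stronger W1 peaks, autosomes, a stricter SOX9 list, wider windows, promoters and narrower loci, and replicate 1 alone.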

Additional observations from a re-analysis of the deposited data

How the results depend on the processing

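Of 93 values recomputed under 15 alternative settings, 61 stayed within the interval of the reported value (for the number of sites, within 1.5 times). Counts and shares cannot change sign. The difference in SOX9 share between members and lasting gains, which could, stayed negative under each setting used for it. With only the 15769 W1 regions of highest total signal, 812 transient sites remained, of which 37.6% had a SOX9 W1 peak (difference from lasting gains -37.0 points), 57.7% of these a SOX9 W2 peak, 14.2% the SOX word, 12.4% the AP1 word, 14.3% were at promoters, 18.7% in cultured MLL3/4 without DOX and 13.1% with WT-SOX9, and 22.5% of hair follicle and 17.5% of epidermal genes had one. The share of all protein-coding genes was not computed for this setting. With lists of 29281 regions each, the values were 15.0% for SOX9 at W1, -43.4 points for the difference, 9.08% for the AP1 word, 16.9% for promoters, 13.7% for cultured MLL3/4 without DOX and 6.03% with WT-SOX9. With no D0 or W2 region within 500 bp they were 11.02% for SOX9 at W1, 54.8% for SOX9 at W2 among these, 13.4% for promoters and 10.1% for cultured MLL3/4 without DOX. An overlap of 50% of the shorter region gave 14.1% for SOX9 at W1 when used for removal and 9.89% for cultured MLL3/4 without DOX when used there, and the list of replicate 1 alone 11.997%. SOX9 peaks above 3600 RPKM gave 3.53% at W1, -24.8 points and 44.6% at W2. Windows of 100 bp to each side held the SOX word in 17.1% (control 13.2%) and the AP1 word in 12.3% (control 3.797%). Promoters of 2.5 kb gave 23.6%, and loci of 10 kb gave 52.5% of hair follicle and 32.5% of epidermal genes, beside 18.9% of all protein-coding genes. Leaving out the dense stretch of chromosome 2 or regions over 50% repeat-masked, both chosen after seeing the data, moved no value outside these limits. Beyond the number of regions and the narrower lists themselves, the cause was not tested. No paired analysis was possible because the groups compared are pooled lists without replicate columns, and for the same reason no replicate could be left out in vivo. Of the groups analysed here, only cultured MLL3/4 without DOX has a list of 1 replicate among the lists used. The depth of the MLL3/4 lists is unknown and most members have low maxima, so for them a missing D0 or W2 peak is a missing call and not a measured absence.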

Other observations

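The CTCF word, for the factor that anchors chromatin loops, was in 106 member windows (1.38%, 95% CI 1.14 to 1.67), against 0.247% of their control windows, 0.331% of lasting gains (difference 1.05 points, 95% CI 0.74 to 1.36) and 0.247% of peaks listed at all 3 times. Peaks of W2 only (1.40%) and of D0 only (1.28%) held it as often as members. Of the 106 members with the word, 2 (1.89%, 95% CI 0.519 to 6.62) overlapped a SOX9 W1 peak and 4 (3.77%, 95% CI 1.48 to 9.30) a cultured MLL3/4 peak without DOX, beside 12.9% and 10.9% of the other members. The ETS word (CCGGAAG) was in 4.05% (95% CI 3.06 to 5.34) of the windows of promoter members and in 0.338% (95% CI 0.223 to 0.511) of the others, whose control windows held it in 0.947% and 0.391%. The TP63 word was in 7 member windows (0.0912%), too few to compare.

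Members were poorer in G and C than the other classes, with a mean of 42.5% over the windows, against 44.8% in lasting gains and 46.996% in peaks of all 3 times. Their control windows had 43.5%. Of the members, 7.09% were repeat-masked over more than 50% of their length, against 2.42% of lasting gains, 5.89% of peaks of W2 only and 4.16% of those of D0 only. Per chromosome, the transient share of the W1 peaks ranged from 20.5% on chromosome 19 to 27.4% on chromosome 2, which holds the dense stretch.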
